A study of Mus musculus with 28 samples.

Results

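The translation arm of mTORC1 was followed at the RNA level through 10 genes, namely Eif4ebp1, Eif4ebp2, Rps6kb1, Rps6kb2, Eif4e, Eif4b, Eif4g1, Pdcd4, Larp1 and Eef2k. They were chosen by symbol as direct mTORC1 substrates, substrates of S6 kinase or components of the complex that these substrates act on. Each symbol matched 1 of the 55413 Ensembl gene IDs in the deposited data, and all 10 passed the filter on low counts.

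mTORC1 is the kinase complex that rapamycin inhibits through FKBP12. It couples nutrient and growth factor signals to protein synthesis, and in T cells its activity accompanies activation and growth. When mTORC1 is active it phosphorylates the 4E-BP proteins, which then release the cap-binding protein eIF4E so that it can join the scaffold eIF4G. It also activates the S6 kinases, whose substrates include ribosomal protein S6, eIF4B, PDCD4 and eEF2K. These steps are changes in phosphorylation, which RNA levels do not show.

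The cells were splenic T cells from male C57BL/6J mice of 8 to 12 weeks, isolated with magnetic beads and labelled CD3+, with 1 RNA-seq library per mouse and 28 mice in 5 groups. The NT group (7 mice) had no treatment. The R group (6 mice) had rapamycin in 0.2% CMC under the skin, and the RO group (6 mice) had Rapamune, an oral rapamycin, by gavage. The rPS group (5 mice) had subcutaneous polymersomes, which are polymer vesicles of poly(ethylene glycol)-block-poly(propylene sulfide), loaded with rapamycin. The PS group (4 mice) had the same vesicles without drug, matched for polymer and volume. Each treated mouse received 11 doses in 11 days. The 3 drug groups had 1 mg rapamycin per kg body weight at each dose. The rPS preparation held about 7.5 mg/ml polymer and 0.125 mg/ml rapamycin, which at that dose comes to 60 mg polymer per kg. No group received CMC alone. Nothing in the labels ties mice of different groups together, and p-values measure the spread between these mice.

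Sequence at the start of each gene was examined because the TOP motif, a run of pyrimidines that begins with C at the first base of an mRNA, is what LARP1 binds. RefSeq transcription starts (GRCm38.p6) were found for 8 of the 10 genes, at 12 starts. Eif4ebp1 and Rps6kb2 had no entry. A C followed by at least 4 further pyrimidines opened 0 of the 12 starts, compared with 3 of 9 starts of a list of known TOP mRNAs (Eif3f, Nap1l1 and Rack1) and 2.51% of all 32851 RefSeq starts. Known TOP mRNAs such as Eef1a1, Eef2 and Tpt1 were missed at their listed starts. A start without the run therefore does not show that an mRNA lacks the motif. The first 30 bases from the start are shown for Larp1, which encodes the TOP-binding repressor, and for 2 of the TOP mRNAs, with the pyrimidine run in capitals.
Larp1 (chr11:58009064-58009093, plus strand): gagccttctgcccggcgcgccactcagcgt
Nap1l1 (chr10:111473227-111473256, plus strand): CTTTTTTagcgccatctgctcgcggcgccg
Rack1 (chr11:48800360-48800389, plus strand): CTTTTTCTCCacagggtcgtggtggcagcc

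The E-box CACGTG, which reads the same on both strands and is bound by MYC and TFEB family factors, was searched from 250 bases before to 50 bases after each start. It stood at 3 of the 12 starts, in 3 of the 8 genes, and at 7.15% of all RefSeq starts. Those 3 genes encode parts of the cap-binding complex and the elongation factor kinase. The 30 bases around the E-box furthest upstream are shown for each, with the motif in capitals. It lies 31 bases before the start in Eef2k, 228 bases before the start in Eif4e and 54 bases before the start in Eif4g1.
Eef2k (chr7:120842788-120842817, plus strand): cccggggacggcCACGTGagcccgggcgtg
Eif4e (chr3:138527028-138527057, plus strand): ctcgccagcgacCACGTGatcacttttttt
Eif4g1 (chr16:20672661-20672690, plus strand): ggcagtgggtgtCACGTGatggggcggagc
A match is a run of letters and shows no binding.

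Libraries held 4286896 to 15696541 counts. RO replicate 7 was left out of every value below unless it is named, because its counts stop at 0 part of the way through 9 chromosomes; it lists 4 of the 10 genes (Rps6kb2, Eif4b, Eif4g1 and Pdcd4) at 0. RO values therefore rest on 5 mice. In 7 of the other 27 libraries the mean log2 level of 14 T cell markers was below that of 12 monocyte and macrophage markers. These T-cell-poor libraries were 5 of the 7 NT libraries (all but replicates 2 and 6) and replicate 3 of both R and RO; none was from PS or rPS. Of these 7, NT replicate 5 was closest to the line, at 5.91 for T cell markers against 6.22. On the other side, rPS replicates 1 (7.20 against 7.07) and 2 (7.23 against 7.02) lay closer to it still. Summed T cell markers were 175 to 1050 CPM (counts scaled to library size) in these 7 and 1420 to 4200 in the other 20 libraries. The highest sums were those of NT replicates 6 (4201 CPM) and 2 (3787 CPM), while no treated library exceeded 3619 CPM. Fits without the 7 therefore set NT mice with high T cell markers against treated mice with lower ones. Cd3e, which encodes the antigen the cells were labelled for, was at 9.58 to 76 CPM in the 7 and 122 to 471 CPM in the 20. Summed neutrophil markers were 357 to 3440 CPM and 15.5 to 120 CPM, and summed monocyte and macrophage markers 2400 to 9890 CPM and 215 to 3330 CPM. Summed B cell markers reached 451 to 5530 CPM over all 27, and Cd79a was present in every library. In the 20, their median was 3530 CPM, beside 2360 CPM for summed T cell markers. The T cell sum was the larger only in NT replicates 2 and 6, PS replicate 4, RO replicate 5 and rPS replicates 1 and 5. The sums cover different genes and give no share of cells. In all 7 NT libraries, Malat1 and mt-Rnr2 were listed at 0, while Malat1 was at 15700 to 27800 CPM in every other library; these genes were named after their values were seen. The NT group and whatever set those 0 values cannot be told apart. In bulk RNA, fewer cells of a type and less RNA per cell cannot be told apart either.

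Levels between genes were compared per kilobase of exon, as CPM per kb over the 27 libraries, after TMM scaling, which sets the libraries level on the bulk of their genes and is used for every level of the 10 genes. Eif4b was highest at 131.6 ± 23.6 (SD, n = 27 here and for the levels that follow). Eif4ebp2 (86.7 ± 11.1), Pdcd4 (82.8 ± 27.9) and Eif4g1 (68.8 ± 7.59) came next, and neighbours in that order differed by less than the larger of their SDs, apart from Eif4b and Eif4ebp2. Larp1 followed at 55.0 ± 7.57, below Eif4g1 by more than either SD. The other 5 genes were far lower, with Rps6kb2 at 11.4 ± 2.27, Eif4e at 7.40 ± 1.27, Rps6kb1 at 6.72 ± 1.09, Eif4ebp1 at 6.48 ± 5.77 and Eef2k at 5.74 ± 1.35. Rps6kb2 stood above Eif4e, and Eif4e above Eef2k, by more than either SD, while Rps6kb1 differed from each of Eif4e and Eef2k by less than the SDs. The place of Eif4ebp1 depended on the libraries: it was at 14.3 ± 6.78 CPM per kb in the 7 T-cell-poor libraries (SD, n = 7), where Rps6kb2 was at 9.72, and at 3.74 ± 0.83 in the other 20 (SD, n = 20), the lowest of the 10. Of the 4E-BP transcripts, then, Eif4ebp2 was the abundant form and Eif4ebp1 the scarce one, and Eif4ebp1 had the widest spread of the 10 relative to its mean.

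In rPS mice against untreated mice, 2 of the 10 genes passed the test, a Benjamini-Hochberg adjusted p under 0.05 in edgeR's quasi-likelihood test over 17132 genes. Eif4ebp1 was lower and Eif4ebp2 higher. The background was large: 21.5% of all tested genes were called in the same comparison (1814 higher and 1874 lower), so 2 of 10 is about the share found among genes at large. The median log2 difference was 0.065 over the 10 genes and -0.01 over all genes. With the T-cell-poor libraries left out, which leaves 2 NT mice, edgeR called 0 of the 10 against a background of 14.7%.

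The 4E-BPs are the repressors that hold eIF4E. Eif4ebp1 (ENSMUSG00000031490.7), which encodes 4E-BP1 and is also a known target gene of ATF4, ran from 7.21 CPM (replicate 5) through a median of 24.2 to 54.7 CPM (replicate 4) in NT. In the R group the lowest value was 9.33 CPM, the median 10.7 CPM and the highest 40.8 CPM (replicate 3). The RO libraries read 8.05 CPM (replicate 1), 36.2 CPM (replicate 3), 7.76 CPM (replicate 4), 7.59 CPM (replicate 5) and 8.92 CPM (replicate 6). The high values were all in T-cell-poor libraries, and NT replicate 5 was the one such library with a low value. PS libraries read 6.97, 4.25, 6.16 and 9.23 CPM for replicates 1, 3, 4 and 5. The rPS libraries read 5.76, 9.43, 7.68, 5.53 and 8.02 CPM for replicates 1, 2, 4, 5 and 7. The 20 libraries that were not T-cell-poor, PS and rPS among them, spanned 4.25 to 10.8 CPM with a mean of 8.22 ± 1.83 (SD, n = 20). The 7 T-cell-poor libraries had a mean of 31.4 ± 14.9 CPM (SD, n = 7).

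Eif4ebp1 fell by 1.65 on the log2 scale in rPS against NT (SE 0.53, edgeR adjusted p = 0.03), a level 0.319 times that of NT, although the groups overlapped. Without the T-cell-poor libraries the difference was -0.28 (SE 0.25, 95% interval -0.80 to 0.23, adjusted p = 0.458), and it was -0.19 with NT replicate 5 kept (adjusted p = 0.652). The call was also lost when NT replicate 4 or 8 or rPS replicate 1, 4, 5 or 7 was left out, with adjusted p from 0.0526 to 0.0779. The other groups gave log2 differences from NT of -1.77 in PS (SE 0.58, adjusted p = 0.0577), -0.58 in R (SE 0.47, adjusted p = 0.59) and -0.72 in RO (SE 0.50, adjusted p = 0.541). The PS difference passed when NT replicate 2, 5 or 6, R replicate 3 or RO replicate 3 was left out (adjusted p 0.0273 to 0.0478). The R difference was -1.14 without R replicate 3 and -0.20 without NT replicate 4, and the RO difference was -1.50 without RO replicate 3 and -0.35 without NT replicate 4. Leaving out all 7 T-cell-poor libraries, the differences were -0.40 in PS, 0.22 in R and -0.12 in RO.

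Eif4ebp2 (ENSMUSG00000020091.16), which encodes 4E-BP2, was at 390.6 CPM in the lowest NT library, with a median of 430.3 and a highest value of 553.1 CPM. The rPS libraries read 538.6, 527.0, 550.8, 617.6 and 585.9 CPM for replicates 1, 2, 4, 5 and 7. Every NT library except replicate 6 lay below all rPS libraries, and the groups overlapped through that library. The PS libraries read 491.7, 401.7, 494.9 and 546.4 CPM for replicates 1, 3, 4 and 5, R ran from 461.4 through 487.5 to 597.1 CPM, and RO from 463.8 through 509.1 to 611.0 CPM. Eif4ebp2 rose in rPS against NT by 0.32 on the log2 scale (SE 0.11, edgeR adjusted p = 0.0327), or 1.25-fold. It was at 443.2 ± 50.8 CPM in the T-cell-poor libraries (SD, n = 7) and 521.6 ± 56.1 CPM in the others (SD, n = 20), and without the former the difference was 0.15 (SE 0.14, adjusted p = 0.486). The call was lost without NT replicate 3, 7 or 8 or rPS replicate 4, 5 or 7 as well (adjusted p 0.0508 to 0.0746). The log2 differences from NT were 0.10 in PS, 0.18 in R and 0.19 in RO, and none passed the test.

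Pdcd4 (ENSMUSG00000024975.14) encodes a repressor that blocks the helicase eIF4A and is marked for degradation by S6 kinase. In NT it read 331.2 and 378.4 CPM in replicates 2 and 6, and 132.3, 168.5, 215.0, 157.5 and 148.9 CPM in replicates 3, 4, 5, 7 and 8. The low values were those of the T-cell-poor libraries, as were the lowest R value (120.2 CPM, replicate 3) and the lowest RO value (187.3 CPM, replicate 3). The other R libraries lay at 222.6 to 386.4 CPM and the other RO libraries at 230.8 to 299.3 CPM. PS libraries read 214.8, 247.3, 246.2 and 248.2 CPM for replicates 1, 3, 4 and 5. The rPS libraries read 459.2, 393.1, 211.8, 382.9 and 289.7 CPM for replicates 1, 2, 4, 5 and 7. Replicate 1 was the highest of all 27 libraries and replicate 4 the lowest of the 20 that were not T-cell-poor. Over the T-cell-poor libraries the mean was 161.4 ± 32.4 CPM (SD, n = 7) and over the others 293.9 ± 73.0 CPM (SD, n = 20).

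For Pdcd4, the log2 difference of rPS from NT was 0.67 (SE 0.26, edgeR adjusted p = 0.0647), which did not pass. It did pass without NT replicate 2 or 6, R replicate 3 or rPS replicate 4 (adjusted p 0.0165 to 0.0499) and in DESeq2 (adjusted p = 0.0479). Without the T-cell-poor libraries it was -0.04 (SE 0.23, adjusted p = 0.923). The differences from NT were 0.235 in R, 0.177 in RO and 0.127 in PS. The fit without the T-cell-poor libraries holds 2 NT mice, those with the highest summed T cell markers of all 27 libraries. There the differences were -0.316 in R, -0.431 in RO and -0.564 in PS (95% interval -1.057 to -0.071, edgeR adjusted p = 0.133). None of these passed. Against PS, the carrier without drug, rPS differed by 0.54 (SE 0.30, adjusted p = 1) with all 27 libraries and by 0.52 (SE 0.19, adjusted p = 0.311) without the T-cell-poor ones, none of which is in either group.

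**Figure D1:**
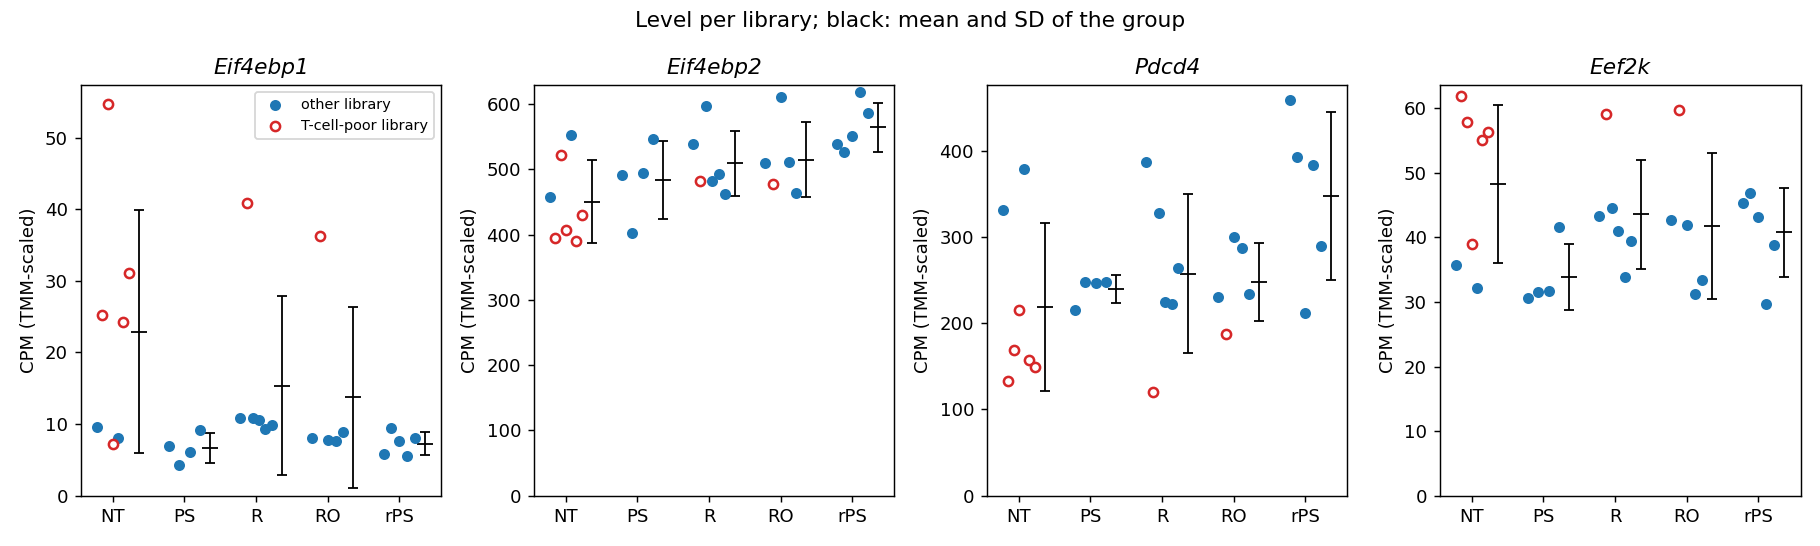
Level of Eif4ebp1, Eif4ebp2, Pdcd4 and Eef2k in each library (y axes: TMM-scaled CPM) by group (x axes), with open red points for T-cell-poor libraries and the mean and SD of each group in black. Eif4ebp1 values of 24.2 CPM and above and the lowest Pdcd4 values of NT, R and RO are all red points.

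The S6 kinases are encoded by Rps6kb1 (S6K1) and Rps6kb2 (S6K2). Rps6kb1 (ENSMUSG00000020516.16) was narrow in NT, from 57.5 through 64.4 to 66.4 CPM, and read 67.7, 48.8, 35.5, 82.0 and 42.7 CPM in rPS replicates 1, 2, 4, 5 and 7. The rPS libraries thus lay on both sides of the NT range. PS libraries read 60.0, 65.2, 57.6 and 50.8 CPM, R ran from 48.6 through 60.6 to 65.6 CPM, and RO from 46.5 through 52.6 to 60.1 CPM. The log2 difference of rPS from NT was -0.18 (SE 0.14, edgeR adjusted p = 0.37) and the largest in size was -0.24 in RO (SE 0.14, adjusted p = 0.484). With marker levels of red cells, B cells and monocytes and macrophages as 3 covariates, Rps6kb1 was -0.46 in rPS against NT and passed the test (adjusted p = 0.0279).

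Rps6kb2 (ENSMUSG00000024830.18) ran from 41.9 through 49.5 to 66.0 CPM in NT. In PS it read 60.0, 99.7, 57.2 and 57.8 CPM for replicates 1, 3, 4 and 5, with replicate 3 well above every other library in the series. In rPS it read 71.8, 58.9, 63.8, 47.8 and 67.0 CPM, R ran from 40.5 through 60.9 to 65.8 CPM and RO from 48.3 through 62.9 to 66.0 CPM. Its log2 difference from NT was 0.43 in PS (SE 0.16, edgeR adjusted p = 0.0812), 0.28 in rPS (SE 0.15, adjusted p = 0.18), 0.22 in RO and 0.19 in R. The PS difference was 0.20 (adjusted p = 0.414) when PS replicate 3 was left out, and it passed when NT replicate 5 was left out (adjusted p = 0.0382). Without the T-cell-poor libraries the edgeR difference was 0.34 in PS (SE 0.22, adjusted p = 0.327) and 0.17 in rPS (SE 0.21, adjusted p = 0.603). The ratio of Rps6kb1 to Rps6kb2 counts had a median of 1.28 (0.874 to 1.55) in the NT mice. It was 0.94 (0.654 to 1.01) with empty vesicles, 1 (0.738 to 1.57) with R, 0.955 (0.755 to 0.964) with RO and 0.83 (0.556 to 1.72) with rPS, so each treated group overlapped NT.

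Eef2k (ENSMUSG00000035064.18) encodes the kinase that slows elongation by phosphorylating eEF2, and S6 kinase inhibits it. In NT it read 35.7 and 32.2 CPM in replicates 2 and 6, and 61.9, 57.9, 39.0, 55.0 and 56.3 CPM in replicates 3, 4, 5, 7 and 8. R replicate 3 (59.1 CPM) and RO replicate 3 (59.7 CPM) were also high, while the other R libraries lay at 33.9 to 44.6 CPM and the other RO libraries at 31.2 to 42.7 CPM. PS libraries read 30.6, 31.5, 31.7 and 41.6 CPM and rPS libraries 45.4, 46.8, 43.2, 29.7 and 38.8 CPM. The T-cell-poor libraries averaged 55.6 ± 7.65 CPM (SD, n = 7) and the others 37.9 ± 5.71 CPM (SD, n = 20), with NT replicate 5 again among the low values. The log2 difference from NT was -0.51 in PS (SE 0.20, edgeR adjusted p = 0.0896) and -0.24 in rPS (SE 0.18, adjusted p = 0.338). The PS difference passed when NT replicate 6 was left out (adjusted p = 0.0455). They were 0.00 in PS and 0.26 in rPS when the T-cell-poor libraries were left out.

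Eif4e, Eif4g1 and Eif4b encode the cap-binding protein, its scaffold and a helicase cofactor. Eif4e (ENSMUSG00000028156.13) ran from 40.6 through 46.9 to 56.4 CPM in NT, from 35.0 through 45.1 to 53.2 CPM in R and from 44.2 through 47.1 to 49.0 CPM in RO. It read 46.0, 44.6, 41.0 and 36.7 CPM in PS replicates 1, 3, 4 and 5. In rPS it read 56.2, 46.6, 19.9, 45.9 and 29.7 CPM, and rPS replicates 4 and 7 were the lowest of all 27 libraries. Its log2 difference from NT was -0.25 in rPS (SE 0.17, edgeR adjusted p = 0.275). The count ratio of Eif4ebp2 to Eif4e, repressor to target, had a median of 9.17 in NT (7.80 to 12.4) and 13.4 in rPS (9.59 to 27.7), with PS (11.4), R (11.4) and RO (10.6) between them and every treated group overlapping NT.

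Eif4b (ENSMUSG00000058655.10) ran from 493.1 through 600.3 to 705.6 CPM in NT and read 762.7, 846.4, 441.2, 550.1 and 534.3 CPM in rPS. It read 531.2, 546.1, 489.3 and 511.5 CPM in PS, and ran from 443.8 to 685.1 CPM in R and from 540.0 to 730.1 CPM in RO. The rPS libraries therefore held both the highest value (replicate 2) and the lowest (replicate 4). Eif4g1 (ENSMUSG00000045983.17) ran from 423.0 through 464.1 to 668.4 CPM in NT, and read 517.0, 587.5, 494.4, 552.9 and 487.6 CPM in rPS and 481.4, 510.4, 488.6 and 463.9 CPM in PS. R ran from 437.9 to 621.7 CPM and RO from 478.4 to 547.9 CPM. Neither gene passed in any comparison with NT, and in rPS the log2 differences were 0.05 for Eif4b (SE 0.15, 95% interval -0.26 to 0.36) and 0.08 for Eif4g1 (SE 0.11, 95% interval -0.14 to 0.30).

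Larp1 (ENSMUSG00000037331.16) encodes the protein that holds TOP mRNAs when mTORC1 is inactive. It ran from 282.5 through 332.1 to 473.6 CPM in NT, with replicate 4 the highest. It read 361.1, 400.9, 504.3, 467.1 and 398.3 CPM in rPS replicates 1, 2, 4, 5 and 7, and 369.4, 348.6, 379.9 and 395.5 CPM in PS. R ran from 330.8 through 361.9 to 437.0 CPM and RO from 339.2 through 367.7 to 428.4 CPM. Replicate 4 of rPS was the highest of all libraries, replicate 1 lay among the middle values, and the groups overlapped. The log2 difference of rPS from NT was 0.29 (SE 0.12, edgeR adjusted p = 0.0697), and it passed without NT replicate 4 (adjusted p = 0.0205) or rPS replicate 1 (adjusted p = 0.0408), with library totals as the scale (adjusted p = 0.0219) and in DESeq2 (adjusted p = 0.0459). It was 0.21 (SE 0.14, adjusted p = 0.297) without the T-cell-poor libraries.

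**Figure D2:**
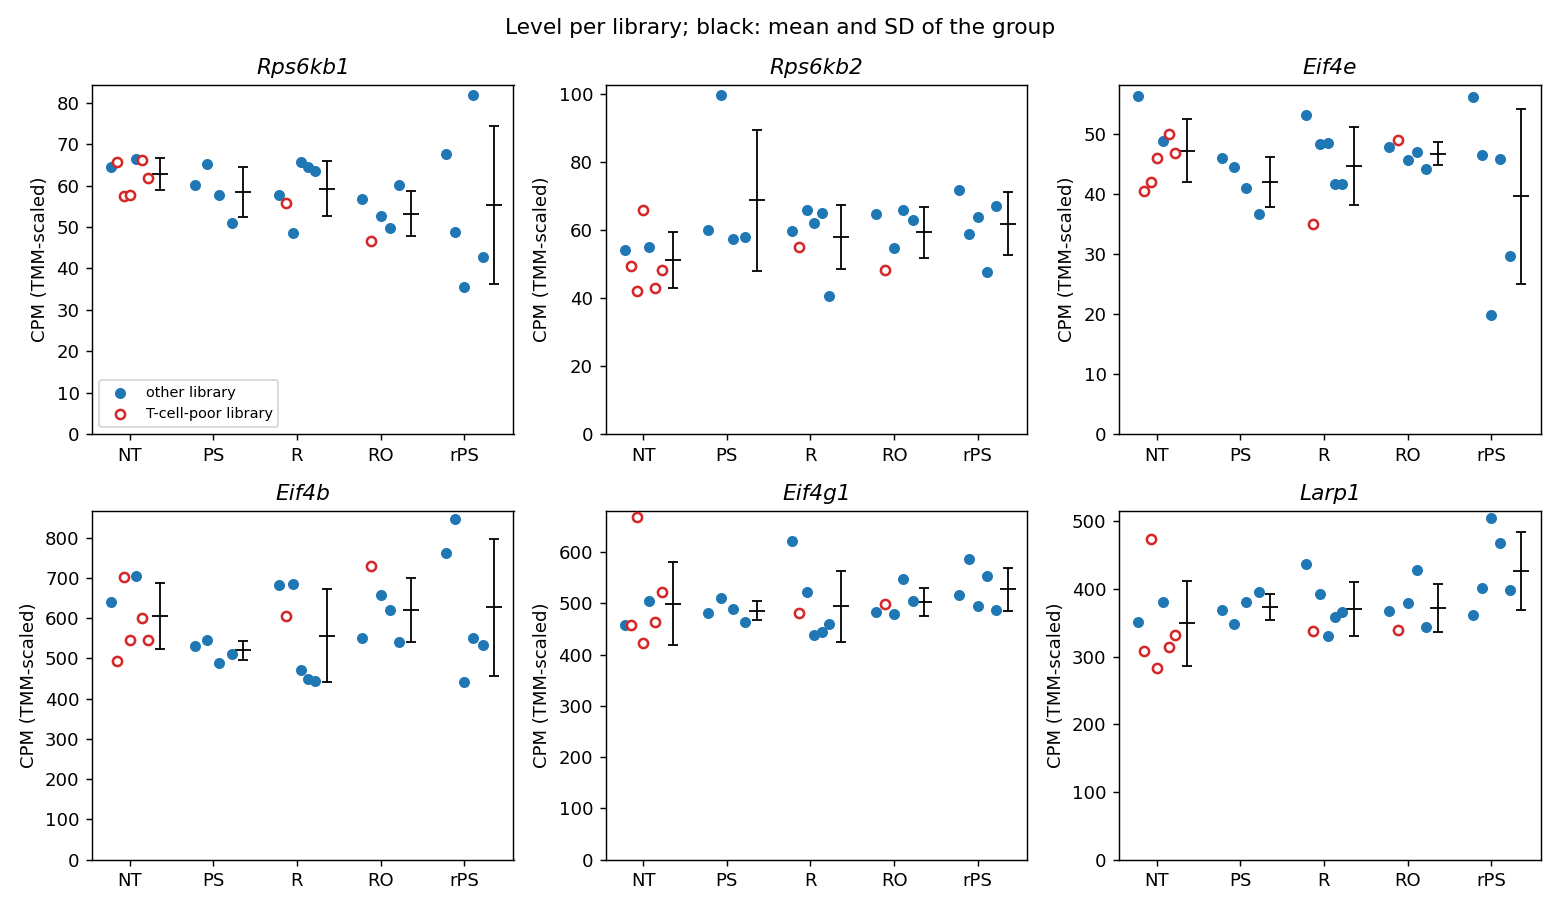
Level of Rps6kb1, Rps6kb2, Eif4e, Eif4b, Eif4g1 and Larp1 in each library (y axes: TMM-scaled CPM, from 0) by group (x axes), with open red points for T-cell-poor libraries and the mean and SD of each group in black. The 5 rPS libraries are the most scattered for Rps6kb1, Eif4e and Eif4b, and PS replicate 3 stands alone for Rps6kb2 at 99.7 CPM.

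None of the 10 genes passed in R, RO or PS against NT with edgeR and all 27 libraries, and fewer genes at large were called there than in rPS against NT. In R against NT, edgeR called 0 of the 10 (0 at an unadjusted p under 0.05) and 0.665% of all genes. In RO against NT it called 0 of the 10 (0 at an unadjusted p under 0.05) and 0.0117% of all genes. In PS against NT it called 0 of the 10 and 4.97% of all genes; 3 of the 10 (Eif4ebp1, Rps6kb2 and Eef2k) had an unadjusted p under 0.05. These comparisons share the NT mice. Without the T-cell-poor libraries, edgeR again called 0 of the 10 in R (background 3.58%), RO (3.55%) and PS (7.62%) against NT. DESeq2 called 4 of the 10 in rPS against NT (background 27.3%), 1 in PS against NT (Eif4ebp1, background 17.2%) and 0 in R or RO against NT. limma's voom with library quality weights called 4 in rPS (35.5%), 4 in R (41.3%), 5 in RO (47.2%) and 4 in PS (54.8%) against NT, which are shares near or below those backgrounds.

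**Figure D3:**
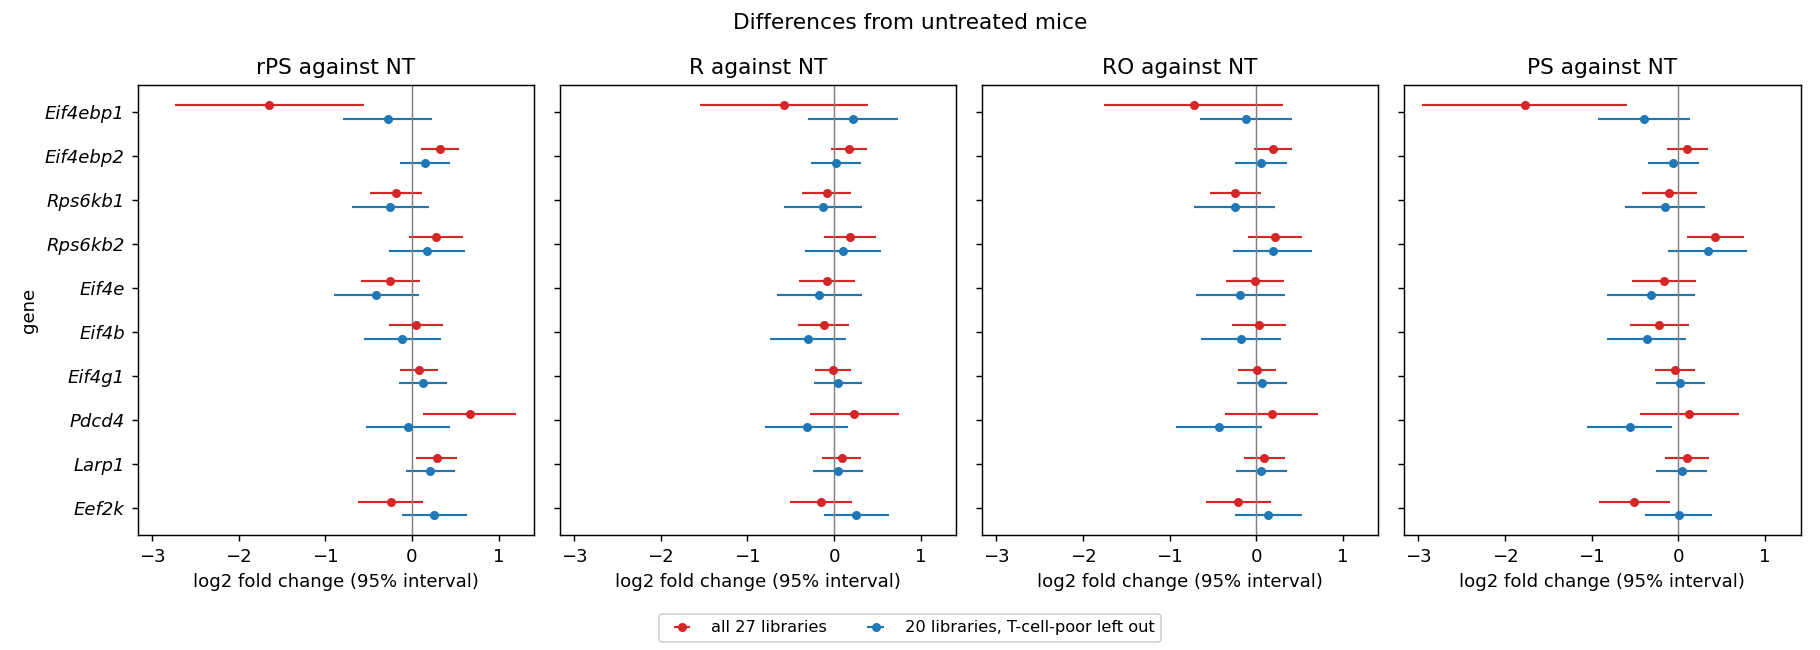
Log2 difference from NT of each of the 10 genes (x axes, bars: 95% intervals) in rPS, R, RO and PS mice, with all 27 libraries and without the T-cell-poor libraries. The Eif4ebp1 difference in rPS goes from -1.65 to -0.28 and that of Pdcd4 from 0.67 to -0.04 when those libraries are left out.

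The loaded vesicles were then set against the other treatments, which bear on what drug and carrier each add. In rPS against PS, edgeR called 0 of the 10 (0 at an unadjusted p under 0.05) and 0.0817% of all genes, and the median log2 difference was 0.159 over the 10 and 0.032 over all genes. The differences were 0.54 for Pdcd4 (SE 0.30), 0.27 for Eif4b (SE 0.18), 0.27 for Eef2k (SE 0.21), 0.22 for Eif4ebp2 (SE 0.12) and 0.19 for Larp1 (SE 0.13). In rPS against R it called 0 of the 10 (0.0117% of all genes; 0 of the 10 at an unadjusted p under 0.05). Eif4ebp1 differed there by -1.07 (SE 0.53, adjusted p = 0.456), and by -0.50 (SE 0.19, adjusted p = 0.227) without R replicate 3 and the other T-cell-poor libraries. In rPS against RO it called 0 of the 10 (0.0175% of all genes), and 0 at an unadjusted p under 0.05.

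Free drug and empty carrier were also compared. In R against PS, edgeR called 0 of the 10 and 0.0117% of all genes, and 1 of the 10 had an unadjusted p under 0.05. That gene was Eif4ebp1, whose R libraries (9.33 CPM and above) all lay just above the PS libraries (9.23 CPM and below). The edgeR ratio of R to PS was 2.29 (adjusted p = 0.63), and the log2 difference was 0.62 (adjusted p = 0.95) without R replicate 3 and 0.61 (SE 0.20, adjusted p = 0.206) without all 7 T-cell-poor libraries. In RO against PS and in R against RO, edgeR called 0 of the 10 and 0% of all genes, with 0 of the 10 at an unadjusted p under 0.05 in each. R and RO differ in product and vehicle as well as in route, and the comparison cannot separate these. R against RO differed by -0.02 for Eif4ebp2 (SE 0.11, 95% interval -0.24 to 0.21) and by 0.06 for Pdcd4 (SE 0.27, 95% interval -0.50 to 0.61).

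Over the 3 rapamycin groups against the 2 groups without drug, edgeR called 0 of the 10 and 0.677% of all genes. Eif4ebp2 alone had an unadjusted p under 0.05, at a log2 difference of 0.18 (SE 0.07, edgeR adjusted p = 0.489). Pdcd4 differed by 0.30 (SE 0.18, adjusted p = 0.793). In the fit without the T-cell-poor libraries Eif4ebp2 was at 0.11 (SE 0.09) and Pdcd4 at 0.02 (SE 0.14). The interaction asked whether rapamycin changed a gene differently with the carrier (rPS against PS) than without it (R against NT), where R also carries CMC and NT does not. It called 0 of the 10 (0 at an unadjusted p under 0.05) and 0.0175% of all genes. Its values were 0.70 for Eif4ebp1 (SE 0.76), 0.42 for Eef2k (SE 0.27), 0.39 for Eif4b (SE 0.23) and 0.30 for Pdcd4 (SE 0.39). In the fit without the T-cell-poor libraries they were -0.10 for Eif4ebp1 (SE 0.32), 0.001 for Eef2k (SE 0.23), 0.56 for Eif4b (SE 0.27) and 0.84 for Pdcd4 (SE 0.30, 95% interval 0.23 to 1.46, adjusted p = 0.202). DESeq2 called 0 of the 10 in each comparison of this and the preceding 2 paragraphs. limma's voom called Eif4ebp2 and Pdcd4 over the 3 rapamycin groups, with 3848 of 17132 genes called. In the interaction it called Eef2k, with 1825 genes called, and in the other comparisons of these paragraphs it called 0 of the 10.

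Marker levels moved with several of the 10 genes. Eif4ebp1 and Eef2k were higher, and Pdcd4, Eif4ebp2 and Rps6kb2 lower, on average in the libraries with few T cell markers. Each differed by more than the SD within either set of libraries, Rps6kb2 only just (50.23 CPM against 61.71 CPM, larger SD 11.44). All 10 neutrophil markers were summed for this: NT ran from 32.9 through 693 to 3440 CPM, R from 71.5 through 101 to 1980 CPM, RO from 34.9 through 52.3 to 515 CPM, PS from 40.6 through 44.7 to 66.2 CPM and rPS from 15.5 through 59.5 to 79.1 CPM. Elane, which encodes neutrophil elastase, was at 0.951 to 25.9 CPM in the T-cell-poor libraries and from 0 to 1.17 CPM in the others. Summed T cell markers ran from 309 through 599 to 4200 CPM in NT and from 1420 through 2270 to 3620 CPM in rPS. With the same 3 covariates, the edgeR log2 difference of rPS from NT was -0.67 for Eif4ebp1 (adjusted p = 0.121) and 0.24 for Eif4ebp2 (adjusted p = 0.121). The part of the neutrophil markers themselves was not tested.

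**Figure D4:**
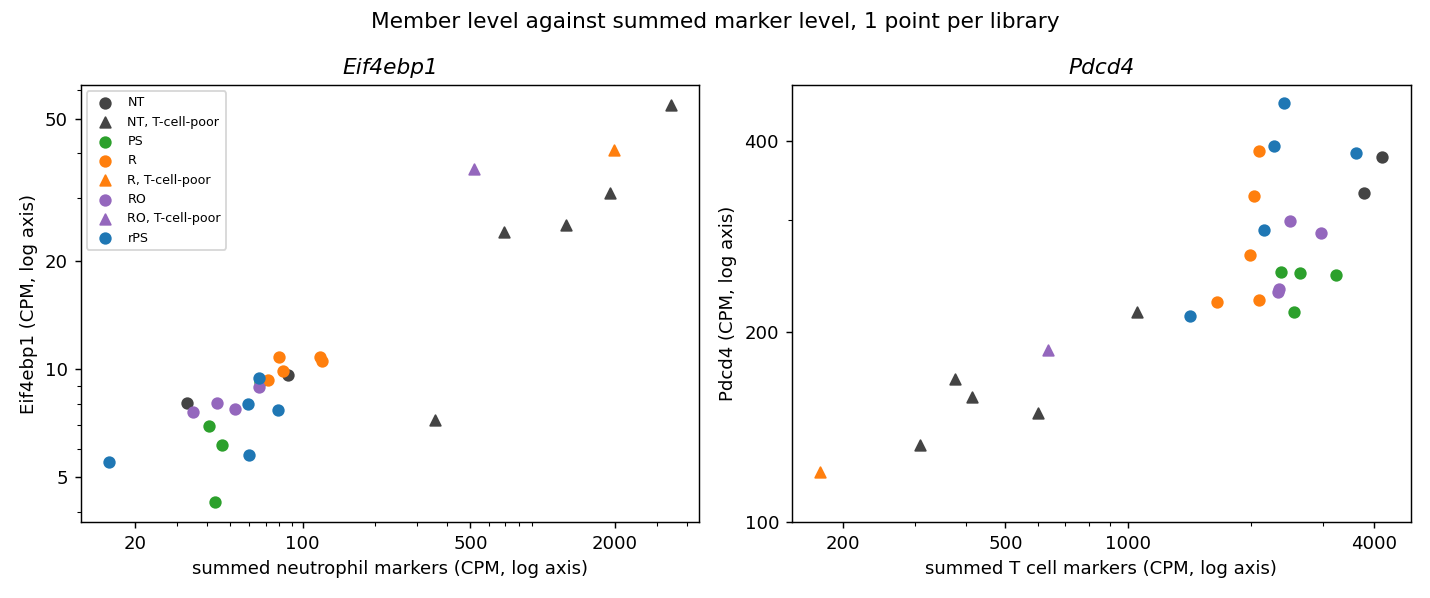
Left, Eif4ebp1 (TMM-scaled CPM, log axis) against summed neutrophil markers (CPM, log axis); right, Pdcd4 (TMM-scaled CPM, log axis) against summed T cell markers (CPM, log axis), with 1 point per library, coloured by group and triangles for T-cell-poor libraries. Of the 7 triangles, 6 lie above all circles for Eif4ebp1, and the exception is NT replicate 5 at 7.21 CPM.

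The genes with the most similar pattern, by Pearson's r of log2 CPM over all 27 libraries, describe which libraries drive each gene. For Eif4ebp1 they were Msrb1 (0.966) and Nadk (0.965), and for Eef2k they were Dhrs3 (0.932) and Ocstamp (0.93). The translation factor genes had other translation genes near them in 2 cases, Eif4e with Eif2s1 (0.93) and Eif4g1 with Eif3b (0.783). For Eif4g1, Supt6 (0.831) was nearer than Eif3b, and Eif4b was nearest to Sdha (0.942) and Snw1 (0.936). Likeness was weakest for Eif4ebp2 (Frmd8, 0.817) and Rps6kb2 (CR974462.4, 0.759). The points share libraries that fall into T-cell-poor and other sets, so these values are a description.

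Other genes of the pathway were taken from 6 lists. The cap-binding list holds eIF4A, further eIF4G and eIF4E forms, PABP and its partners and the MNK kinases. With all 27 libraries, edgeR called 0 of its 14 tested genes in rPS against NT and 0 in R, RO and PS against NT. Without the T-cell-poor libraries it called 1 higher and 2 lower in each of rPS and PS against NT. It called 1 higher and 1 lower in RO, and 1 higher in R. That fit called 14.7% of all genes in rPS, 7.62% in PS, 3.55% in RO and 3.58% in R, and rests on 2 NT mice. The counts that follow for rPS against NT with all 27 libraries are to be read beside the 21.5% of all genes called there. Those were 1814 of 17132 higher and 1874 lower. Of 12 tested substrates, relatives and regulators of S6 kinase, 1 rose in rPS against NT, Cad, which encodes the first enzymes of pyrimidine synthesis (log2 difference 0.55, SE 0.17, adjusted p = 0.0227). Of 9 tested mTORC1 substrates outside translation, 4 rose. These were Foxk1, which encodes a transcription factor (0.66, SE 0.15, adjusted p = 0.00508), Maf1, the repressor of RNA polymerase III (0.50, SE 0.13, adjusted p = 0.00973), Akt1s1, which encodes the mTORC1 inhibitor PRAS40 (0.55, SE 0.17, adjusted p = 0.0232), and the autophagy gene Atg13 (0.33, SE 0.11, adjusted p = 0.0396). The median of that list was -0.03, and its other 5 genes lay at or below that value. None of these 5 genes passed without the T-cell-poor libraries, where edgeR gave adjusted p from 0.074 (Cad) to 0.596 (Atg13). The log2 differences there were 0.49 for Akt1s1 (SE 0.26), 0.37 for Foxk1 (SE 0.17), 0.33 for Cad (SE 0.12), 0.31 for Maf1 (SE 0.18) and 0.12 for Atg13 (SE 0.15). Of the S6 kinase list, the same fit called 1 other gene higher and 2 lower in rPS, and 1 lower in each of R, RO and PS. It called 0 of the mTORC1 substrates outside translation against NT.

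Among 14 TOP mRNAs other than those of ribosomal proteins, 2 fell in rPS against NT. Nap1l1, which encodes a histone chaperone, was at -0.59 (SE 0.15, edgeR adjusted p = 0.00924), and Vim, which encodes vimentin, at -1.37 (SE 0.41, adjusted p = 0.0231). Nap1l1 also fell in PS against NT (-0.62, SE 0.16, adjusted p = 0.0413). Of 13 eIF3 subunits, Eif3a rose (0.41, SE 0.13, adjusted p = 0.0251) and Eif3l fell (-0.45, SE 0.13, adjusted p = 0.0167). The lists' medians were -0.10 and -0.19, beside -0.01 for all genes. In the fit without the T-cell-poor libraries Nap1l1 (-0.64, adjusted p = 0.0393) and Eif3l (-0.69, adjusted p = 0.00125) passed, while Vim (-0.34, adjusted p = 0.208) and Eif3a (0.42, adjusted p = 0.0538) did not. The lists' counts were larger there: 7 of the 14 TOP mRNAs fell and 0 rose in rPS against NT (median -0.65, beside 0.05 for all genes), with 9 in PS, 6 in RO and 2 in R. Of the eIF3 subunits 7 fell in rPS, 7 in PS, 5 in RO and 4 in R. The backgrounds are the 14.7%, 7.62%, 3.55% and 3.58% given above for those fits. The lists share Eif3e, Eif3f and Eif3h, the 4 comparisons share the NT mice, and only NT replicates 2 and 6 remain there. The groups with these counts include PS, which had no rapamycin. Between any 2 treated groups, edgeR called 0 genes of either list in that fit. The cause of the differences from NT was not tested.

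ATF4 is a transcription factor whose translation mTORC1 raises. Of 15 genes, Atf4 and its targets, 1 rose and 3 fell in rPS against NT, a share near the 21.5% of all genes. Atf4 itself rose (0.81, SE 0.27, edgeR adjusted p = 0.0373). Psat1, of serine synthesis, fell (-0.76, SE 0.19, adjusted p = 0.00751), as did the asparagine synthetase gene Asns (-2.37, SE 0.64, adjusted p = 0.0133) and Slc7a11, of the cystine transporter (-3.05, SE 1.03, adjusted p = 0.0369). When the T-cell-poor libraries were left out Psat1 was at -1.02 (SE 0.25, adjusted p = 0.0115) and still passed. Atf4 (0.94, SE 0.45, adjusted p = 0.163) and Asns (-1.64, SE 0.82, adjusted p = 0.179) did not pass there, and Slc7a11 was at 0.86 (SE 0.72, adjusted p = 0.432), with its sign turned. Psat1 fell in R against NT too (-0.76, SE 0.18, adjusted p = 0.0411).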

How the data were processed

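RNA from splenic T cells was sequenced, and the authors deposited 1 table of expected counts per mouse for 28 mice. The submitters' processing notes name build GRCm39 and the tools STAR 2.7.5a, Trimmomatic 0.39, Cuffdiff and Cufflinks 2.1.1. Which tool counted, with which annotation and strand setting, is not given in the sources used here. Although the series text speaks of single cells, each table is 1 bulk profile.

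The deposited expected counts were rounded to whole numbers. Symbols and exonic lengths came from GENCODE M21 (GRCm38), another build, so no gene coordinates from it are given; 52082 of 55413 IDs had a symbol. The 5 groups were taken from the labels. RO replicate 7 was left out. edgeR 4.0.16 (quasi-likelihood, robust, two-sided, TMM scaling, filterByExpr) in R 4.3.3 was fitted on 27 libraries and 17132 genes for 12 comparisons, and a gene counts as called where its adjusted p (Benjamini-Hochberg, within a comparison) is under 0.05. Levels are TMM-scaled CPM. Alternatives used other scalings, filters and covariates, DESeq2 1.42.0, limma 3.58.1 voom, subsets of libraries and leaving out each library.

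Total counts of 4286896 to 15696541 mean that a count of 0 allows 3 counts, or 0.191 to 0.7 CPM, for counting error only. No 2 libraries agreed within sampling noise (lowest chi-square per gene 3.93 over 378 pairs). On simulated data for rPS against NT with 16937 genes, 60% of 2-fold and 81% of 4-fold changes were recovered, with 3 false calls. Only 100 genes were changed at each fold there, and the simulated libraries had no split into T-cell-poor and other sets. Recovery and false calls in the real comparison can therefore differ. All 10 genes are named; of each pathway list up to 4 called genes with the smallest p, and for each of the 10 genes the 2 of highest correlation, could be named. The genes and lists were chosen with earlier results of these data known. Start sequences are from RefSeq (GRCm38.p6).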

Additional observations from a re-analysis of the deposited data

Results flagged for a closer look

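In 6 of 50 groups (1 per gene and treatment), 1 library stood apart from the rest by Dixon's test, where chance alone flags about 1 in 20. Eif4ebp1 was at 40.8 CPM in R replicate 3, next to 10.8 CPM in the following R library, and at 36.2 CPM in RO replicate 3, next to 8.92 CPM; both libraries are T-cell-poor. Rps6kb2 was at 99.7 CPM in PS replicate 3, next to 60.0 CPM. Eif4g1 was at 668 CPM in the T-cell-poor NT replicate 4, next to 523 CPM. Pdcd4 was lowest at 215 CPM in PS replicate 1, next to 246 CPM. Eef2k was at 41.6 CPM in PS replicate 5, next to 31.7 CPM.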

How the results depend on the processing

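The 2 calls in rPS against NT became 4 with DESeq2 (27.3% of all genes called) and 4 with voom (35.5%). With the 3 marker covariates both were lost and Rps6kb1 alone passed, and with RO replicate 7 included Eif4ebp1 alone passed. The count was 0 with no filter on low counts, with the compared groups only and without the T-cell-poor libraries (14.7% of all genes called). It was also 0 with NT replicate 5 added back to those (chosen after seeing the data). A fit with the replicate number as a block also gave 0, though no label says that these numbers pair mice. Same-numbered libraries of different groups correlated at -0.357 to 0.763 (median 0.042), over 0.1 in 14 of 38 pairs. A library correlated best with its own number in 16 of 76 cases. The highest value, 0.763, joins R and RO replicate 3, both T-cell-poor. Such correlations mix any pairing with that split, so they cannot decide whether mice were paired. Leaving out 1 library at a time gave 0 to 3 calls in rPS against NT and 0 to 2 in PS against NT. With voom there were 4 calls in R against NT, 5 in RO against NT and 4 in PS against NT. It also gave 2 for any rapamycin, where 3848 of 17132 genes were called, and 1 for the interaction, where 1825 were called. DESeq2 gave 1 in PS against NT. Over all genes, the 3688 calls in rPS against NT ran from 542 (NT replicate 5 added back) to 6082 (voom), and from 2122 to 4685 when 1 library was left out; the replicate block gave 1811. The 851 calls in PS against NT ran from 2 to 9388 and from 2 to 2899, and the 114 in R against NT from 10 to 7082 and from 25 to 552. The 2 in RO against NT ran from 1 to 8087 and from 2 to 243. Of 4670 single-gene values under an alternative, 4609 kept their side of the threshold, 25 lost and 36 gained the call; 228 changed sign, none of them called in either fit. The cause was not tested. The lowest value of any of the 10 genes, 4.25 CPM, lay above the 0.7 CPM that a count of 0 allows at the lowest depth.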
